A study of Homo sapiens with 8 samples.

Results

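The NFkB and IkB gene family was followed in RKO colon carcinoma cells with and without knockdown of A20. The family was set by name as 10 genes, namely the 5 NFkB subunits NFKB1, NFKB2, RELA, RELB and REL, and the 5 IkB proteins NFKBIA, NFKBIB, NFKBIE, NFKBIZ and BCL3. All 10 were among the 57992 genes counted, and all 10 were among the 13412 genes with enough reads to be tested. RKO is an established human cell line. One group of 4 samples had been transfected with a control siRNA and the other group of 4 with an siRNA against A20, and every sample was then stimulated with recombinant human wnt3a at 50 ng/mL for 24 hours. The comparison is therefore of A20 siRNA with control siRNA in wnt3a-treated cells. No sample without wnt3a, and none with TNF, was analysed here. RNA was captured by its poly(A) tail and sequenced as single reads, with between 21226451 and 34194273 reads counted on genes per sample.

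NFkB is a family of transcription factors that bind DNA as dimers. In resting cells the dimers are held in the cytoplasm by IkB proteins, and inflammatory signals such as TNF lead to phosphorylation and degradation of the IkB, so that the dimer enters the nucleus. Several subunits and IkB proteins are themselves encoded by NFkB target genes, which makes feedback loops. A20, the product of TNFAIP3, is another such feedback gene and is best known for restraining the signals that activate the IkB kinase.

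TNFAIP3 (ENSG00000118503.14, chromosome 6, 137867214 to 137883314, GRCh38) was examined first, as a check of the labels. It ranged from 4.92 to 5.83 CPM (reads per library of common size, after TMM scaling) with control siRNA and from 3.01 to 3.47 CPM with A20 siRNA. The groups did not overlap, and a two-sided exact permutation test of log2 CPM gave p = 0.0286, the lowest value possible for 4 against 4. With 60.8% of the control level left, the knockdown was partial at the level of RNA. Of 8 colon epithelial markers, EPCAM, KRT8, KRT18 and CDX2 were expressed, whereas KRT19, CDH1 and CDX1 had no read in any sample and VIL1 had at most 1 read. The summed level of these 8 markers was 140.4 to 151.6 CPM with control siRNA and 138.1 to 146.3 CPM with A20 siRNA. Markers of leukocytes (PTPRC, CD3E, CD14, LYZ), fibroblasts (COL1A1, COL1A2, DCN, LUM) and endothelium (PECAM1, VWF, CDH5) had at most 4 reads per gene and sample.

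The promoters of the family were inspected for the kB consensus, the decamer that NFkB dimers recognise. Promoter sequences were taken from RefSeq on GRCh38.p14 as windows from 250 bases before to 50 bases after each annotated start, and both strands were searched. Of the 10 members, 8 had windows in the table, 14 windows in all. The consensus was present in 9 of these 14 windows (64.3%), against 5.91% of all 35116 windows. By gene, 7 of the 8 members had it in at least 1 window, against 7.09% of 27305 genes, and RELA was the member without it. The sites below are shown because such decamers are the DNA that the products of these genes bind. Each is written 5′ to 3′ on the strand of its gene, with the matching bases in capitals and overlapping matches joined.
NFKB1: gacgtcagtGGGAATTTCCagccaggaa
NFKB2, upstream start: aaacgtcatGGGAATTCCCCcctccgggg
NFKB2, downstream start: ggtattttcGGGACTTTCCtaagctgct
REL: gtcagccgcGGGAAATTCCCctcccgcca
NFKBIA: gactggcttGGAAATTCCCcgagcctga
NFKBIB: ggcgtggtgGGGAATTTCCCgcagggcgg
NFKBIZ: ttttggtctGGGAATTTCCagtgtgcag
BCL3: cggctgcagGGGAAGTCCCggcgcccgg
A match of letters is a description of the window and not evidence of binding in these cells.

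The printed stretches lie at chr4:102501301-102501328 (NFKB1, plus strand), chr10:102394462-102394490 and chr10:102395675-102395702 (NFKB2, plus strand), chr2:60881518-60881546 (REL, plus strand), chr14:35404812-35404839 (NFKBIA, minus strand), chr19:38899932-38899960 (NFKBIB, plus strand), chr3:101827758-101827785 (NFKBIZ, plus strand) and chr19:44748701-44748728 (BCL3, plus strand), all on GRCh38. The match began 49 bases before the start in NFKB1, 47 bases before it in REL, 81 in NFKBIA and 28 in NFKBIB. In BCL3 it began 2 bases after the start. NFKB2 carried 4 separate sites over its windows and NFKBIZ carried 2. The NFKB1, NFKBIB and NFKBIZ sites share the same 10 bases, and the matching bases of REL contain those of NFKBIA.

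Levels of different members were compared per kilobase of exon, as CPM divided by the length of all annotated exons. RELA, which encodes the main transactivating subunit p65, was the most abundant at 21.4 ± 0.485 CPM per kb with control siRNA (SD, n = 4). NFKB2, the precursor of p52, had 10.4 ± 0.542 CPM per kb (SD, n = 4), and NFKB1, the precursor of p50, had 7.58 ± 0.0972 CPM per kb (SD, n = 4). The inhibitors NFKBIE (7.59 ± 0.330) and NFKBIA (7.25 ± 0.186) had similar levels in CPM per kb (SD, n = 4 each), and the ranges of NFKB1, NFKBIE and NFKBIA over the 8 samples overlapped. RELB came next, with 4.62 to 5.47 CPM per kb over the 8 samples. NFKBIZ (3.97 ± 0.221 CPM per kb), NFKBIB (2.23 ± 0.264) and BCL3 (1.23 ± 0.144) followed (SD, n = 4 each), and the ranges of neighbours did not overlap. REL, the gene of c-Rel, which is best known from lymphocytes, was the lowest at 0.750 ± 0.0765 CPM per kb (SD, n = 4).

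The order in the middle depended on the gene length used. With the length of the MANE Select transcript, the single reference transcript of each gene, NFKB1 had 29.3 CPM per kb and moved above NFKB2 at 19.3, and NFKBIA at 15.8 moved above NFKBIE at 8.36. RELA stayed highest (46.3) and REL lowest (1.16) with this length, and also with the longest transcript. The lengths used for REL were 17129 bases for all exons, 11108 for MANE Select and 11255 for the longest transcript. Its rank with a shorter transcript was not examined. In the annotation, 33.3% of the exonic bases of REL are shared with a non-coding gene on the same strand, ENSG00000267520, which had 0 counts in all samples. How reads over bases shared by 2 genes were counted is not given in the sources used here, so the level of REL may be understated.

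**Figure D1:**
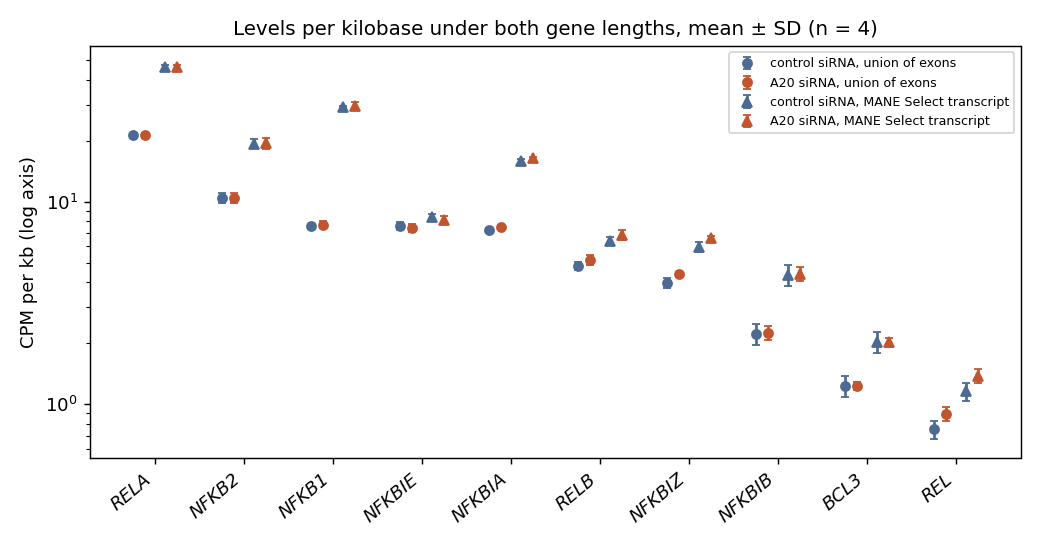
Mean level of each member in CPM per kilobase (log axis) in control siRNA and A20 siRNA samples, with SD over 4 samples, for the length of all exons (circles) and of the MANE Select transcript (triangles). RELA was the highest and REL the lowest with both lengths, with both siRNA groups close to each other for each member.

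The make-up of the family was compared as shares of the summed level. Of the summed subunit level per kb, RELA took 47.6% ± 0.934 in the controls and 46.7% ± 0.746 after A20 siRNA, and REL took 1.67% ± 0.184 and 1.98% ± 0.187 (SD, n = 4 each). Of the summed IkB level, NFKBIE took 34.1% ± 1.00 and 32.5% ± 0.635, and NFKBIZ took 17.9% ± 1.30 and 19.4% ± 0.784 (SD, n = 4 each). The ratio of summed subunits to summed IkB proteins was 2.02 ± 0.0428 in the controls and 1.99 ± 0.0574 after A20 siRNA (SD over 4 samples). These values used the length of all annotated exons and depended on it. With the MANE Select length the ratio was 2.81 ± 0.0518 in the controls and 2.75 ± 0.0777 after A20 siRNA (SD over 4 samples). Of the summed IkB level in the controls, NFKBIE then took 22.9% and NFKBIA 43.2%. No test was made of these proportions. In bulk RNA, fewer cells of a type and less RNA per cell cannot be told apart.

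To ask whether loss of A20 altered transcripts of the family, A20 siRNA was compared with control siRNA over all 13412 tested genes. None of the 10 members passed an adjusted p-value of 0.05 in edgeR's quasi-likelihood test, where 1.25% of all tested genes did (167 genes). DESeq2 and limma-voom also called 0 members. At an unadjusted p-value under 0.05, 2 members were found, REL and NFKBIZ, both higher. Of all tested genes, 16.2% reached that level, and 8.81% did so in the higher direction. The log2 fold changes of the 10 members had a median of 0.02, from -0.03 to 0.25, beside a median of 0.0027 for all tested genes. Of the members, 8 were above 0, where 51.6% of all tested genes were. These 8 include NFKB2 at 0.00044, BCL3 at 0.01, and NFKB1 and NFKBIB at 0.02 each. All of those changed sign in some of the alternative fits given below. No member lay outside the 5th to 95th percentile of all tested genes, which ran from -0.17 to 0.26.

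**Figure D2:**
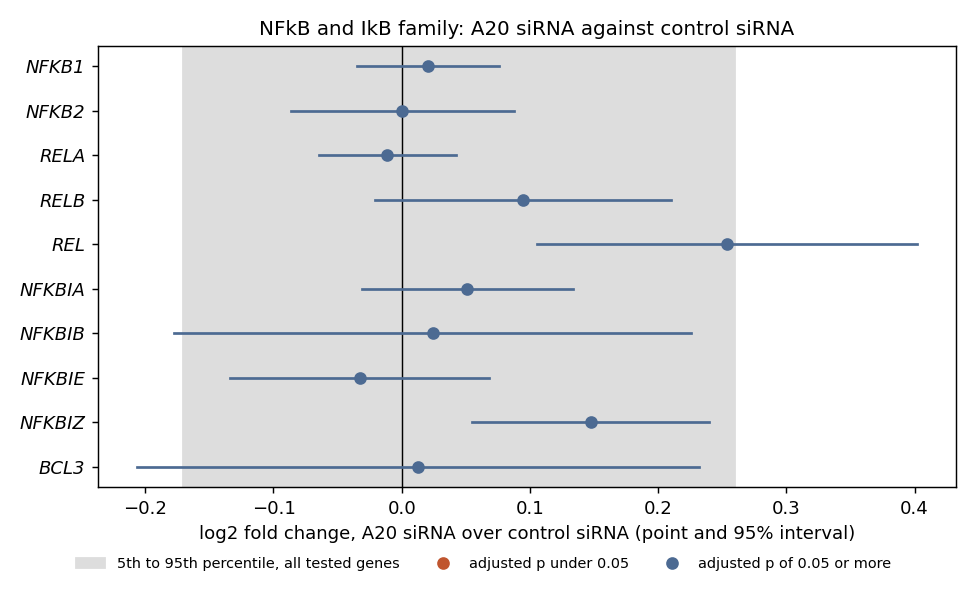
Log2 fold change of each member, A20 siRNA over control siRNA, with its 95% interval from the edgeR fit on 4 samples per group; the grey band spans the 5th to 95th percentile of all 13412 tested genes, from -0.17 to 0.26. REL at 0.25 and NFKBIZ at 0.15 have intervals above 0 before adjustment over all genes, and the other 8 intervals include 0.

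Among the subunits, REL (ENSG00000162924.13, chromosome 2, 60881491 to 60931612, plus strand, GRCh38) had the largest log2 fold change. The thinnest sample had 267 reads of it. In CPM, its level was 13.4, 12.4, 14.3 and 11.3 in control replicates 1 to 4, and 16.4, 13.7, 15.2 and 16.2 in the same order after A20 siRNA. Replicate 2 of the A20 siRNA group was the lowest of its group and lay below control replicate 3, while the other A20 siRNA samples were above all controls. The means were 12.9 ± 1.31 and 15.4 ± 1.23 CPM (SD, n = 4 each), a difference of 19.2% with a 95% interval from 7.56% to 32.1% before adjustment. On the log2 scale this was 0.25 with a standard error of 0.07, which missed the threshold (adjusted p = 0.0752, edgeR). REL ranked 350th of the tested genes by p-value, and 5.23% of tested genes had a larger log2 fold change.

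Whether REL passed depended on single samples and on the settings of the fit. It passed without control replicate 1 (log2 fold change 0.27, adjusted p = 0.0373, edgeR) and without A20 siRNA replicate 2 (0.31, adjusted p = 0.0304). It did not pass with any other sample left out. With no filter on low counts it passed as well (adjusted p = 0.00375, edgeR). It also passed in the fits with the replicate number as a block, which are given below. Over all tested genes, 567 were called higher and 430 lower without control replicate 1, and 123 and 154 without A20 siRNA replicate 2. The fit without a filter called 314 and 310, against 85 and 82 in the reported fit. REL is a long gene, with 17129 exonic bases against a median of 4982, and longer genes tended to have higher log2 fold changes (Spearman's rho 0.18 across the tested genes, which are not independent replicates). After correcting each sample for its trend with length and GC content, the log2 fold change of REL was 0.22 (adjusted p = 0.0807, edgeR).

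The abundant subunits NFKB1, RELA and NFKB2 differed little between the groups. NFKB1 had 118, 117, 121 and 119 CPM in control replicates 1 to 4, and 118, 116, 123 and 125 CPM in the A20 siRNA samples. RELA had 113, 117, 116 and 119.9 CPM, and 113, 118, 118 and 114 CPM. The groups overlapped for both genes. The log2 fold changes were 0.02 for NFKB1 (95% interval -0.03 to 0.08) and -0.01 for RELA (95% interval -0.06 to 0.04), so a change of either beyond 5.42% was outside the intervals. NFKB1 lies on chromosome 4 from 102501330 to 102617302, and RELA on chromosome 11 from 65653599 to 65663090. For NFKB2, on chromosome 10 from 102394110 to 102402524, levels were 62.4, 56.7, 55.4 and 58.4 CPM in the controls and 56.2, 60.3, 62.2 and 54.6 CPM after A20 siRNA, which overlapped. Its log2 fold change was 0.00044 (95% interval -0.09 to 0.09).

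RELB (chromosome 19, 45001461 to 45038192), which pairs with p52 in the non-canonical pathway, had 14.3, 13.9, 14.2 and 15.3 CPM with control siRNA and 15.2, 14.3, 16.4 and 15.8 CPM with A20 siRNA. A pair of A20 siRNA samples, replicates 3 and 4, lay above all controls. The log2 fold change was 0.09 (95% interval -0.02 to 0.21, adjusted p = 0.418, edgeR).

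Of the IkB proteins, NFKBIZ was the only member whose groups did not overlap. Groups did not overlap for 7.61% of all tested genes, and for 3.71% with the A20 siRNA samples higher. NFKBIZ (ENSG00000144802.11, chromosome 3, 101827991 to 101861022, plus strand) encodes IkB-zeta, a nuclear IkB that acts as a coactivator at secondary response genes, and had 535 to 911 reads per sample. Its level was 25.0, 22.2, 24.0 and 22.6 CPM in control replicates 1 to 4, and 26.6, 25.9, 25.3 and 26.3 CPM after A20 siRNA. The lowest A20 siRNA sample was thus just above control replicate 1, the highest control. The means were 23.4 ± 1.30 and 26.0 ± 0.555 CPM (SD, n = 4 each), a difference of 10.8% with a 95% interval from 3.89% to 18.1% before adjustment. The log2 fold change of 0.15, with a standard error of 0.04, did not pass the threshold (adjusted p = 0.0989, edgeR). Without control replicate 1 it was 0.18 and passed (adjusted p = 0.0194, edgeR), and with any other sample left out it did not pass. The fit without control replicate 1 called 567 of all tested genes higher, against 85 with all samples. With the correction for length and GC content the log2 fold change of NFKBIZ was 0.15 (adjusted p = 0.0858, edgeR). NFKBIZ shares 3.29% of its exonic bases with NXPE3 on the same strand.

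NFKBIA (ENSG00000100906.10, chromosome 14, 35401079 to 35404749, minus strand), which encodes IkB-alpha, the classical inhibitor that is resynthesised after NFkB activation, had 24.4, 25.5, 24.0 and 24.5 CPM with control siRNA and 25.4, 26.0, 25.6 and 24.8 CPM with A20 siRNA. Control replicate 2 lay among the A20 siRNA samples, whereas the other controls were below all of them. The log2 fold change was 0.05 (95% interval -0.03 to 0.13, adjusted p = 0.564, edgeR), and the upper bound amounts to 9.68%. NFKBIE (chromosome 6, 44258166 to 44265788), which encodes IkB-epsilon, had 18.7 to 20.6 CPM with control siRNA and 18.2 to 20.2 CPM with A20 siRNA. Its log2 fold change was -0.03 (95% interval -0.13 to 0.07).

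NFKBIB (chromosome 19, 38899700 to 38908893), which encodes IkB-beta, and BCL3 (chromosome 19, 44747705 to 44760044), a nuclear IkB that binds p50 and p52 homodimers, were the least covered members. NFKBIB had 102 to 174 reads per sample with means of 5.18 ± 0.613 and 5.24 ± 0.416 CPM (SD, n = 4 each). BCL3 had 75 to 134 reads per sample, and levels of 3.26 to 4.19 CPM in the controls against 3.53 to 3.91 CPM after A20 siRNA. For both genes the A20 siRNA samples all lay within the range of the controls. Their log2 fold changes were 0.02 (95% interval -0.18 to 0.23) and 0.01 (95% interval -0.21 to 0.23), so at this depth changes of up to 16.9% and 17.4% were not excluded by the intervals. DESeq2 gave no adjusted p-value for either gene.

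**Figure D3:**
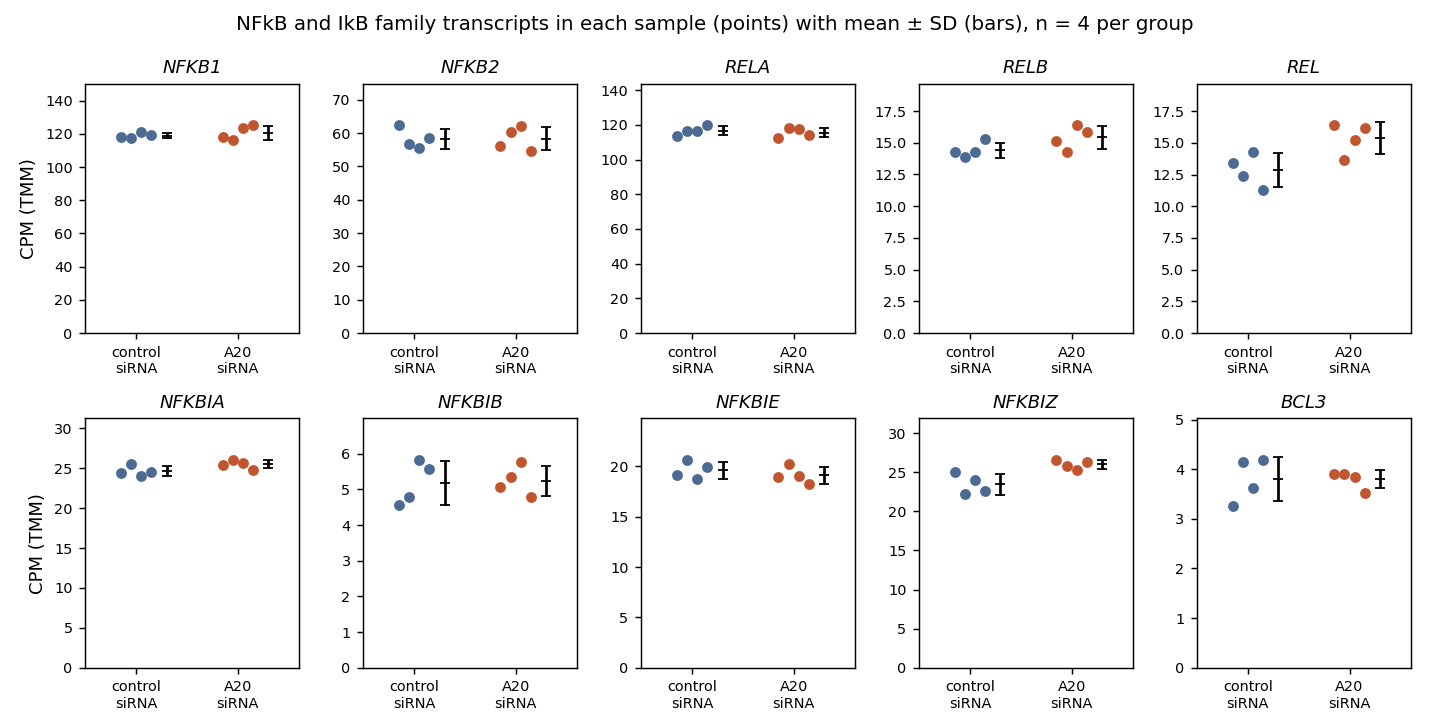
CPM of each member in each of the 8 samples (points, replicates 1 to 4 from left to right) with the mean and SD of each group of 4 (bars), on axes that start at 0. The groups overlap for every member except NFKBIZ, whose A20 siRNA samples start at 25.3 CPM, above the highest control at 25.0.

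The spread between replicates differed among members. For NFKB1 the coefficient of variation of the controls was 1.28%, below the 1.77% that counting error alone gives at its mean count. For REL it was 10.2% against 5.15% from counting, so the controls of REL differed by more than counting error. For BCL3 it was 11.7% against 9.94% from counting.

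**Figure D4:**
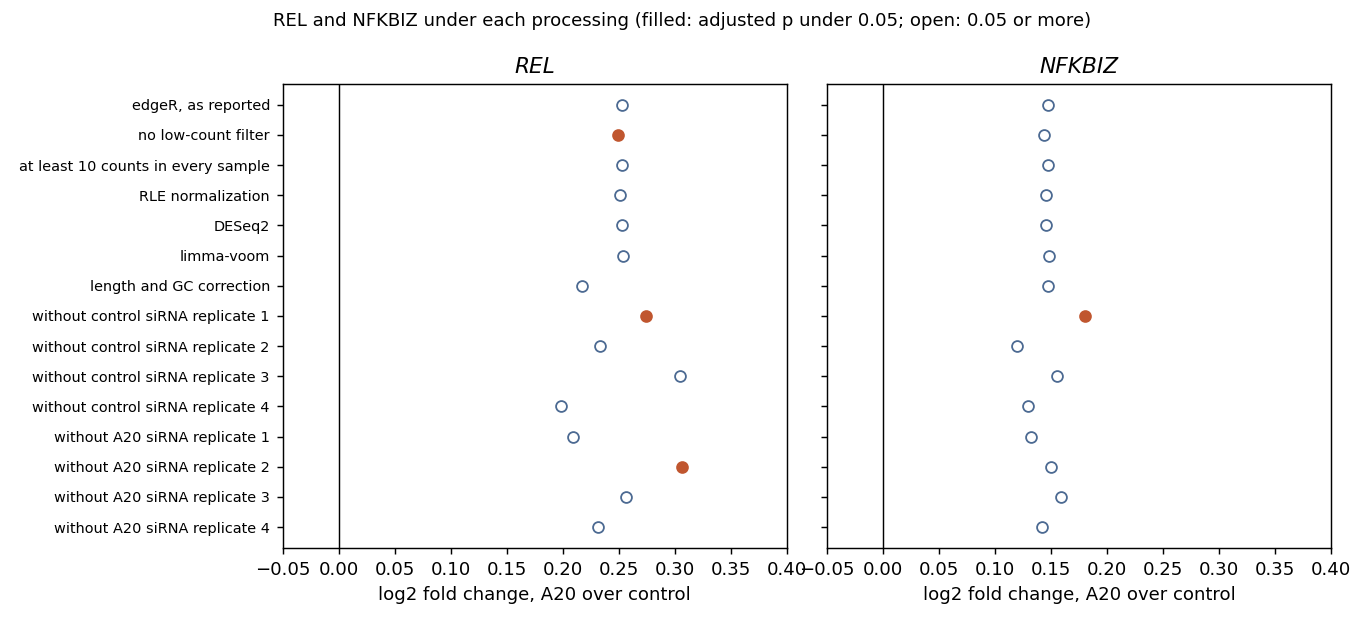
Log2 fold change of REL (left) and NFKBIZ (right) in the reported fit and under other processing or with 1 sample left out. Filled points have an adjusted p-value under 0.05. Fits with the replicate number as a block, in which REL also passed, are not drawn. REL stayed between 0.20 and 0.31 and NFKBIZ between 0.12 and 0.18, all above 0, while few of the points are filled.

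Upstream of the family, 10 kinases and adaptors that act before IkB or before the processing of p100 were examined. All 10 were tested, 1 was higher and 0 were lower at an adjusted p-value under 0.05 (0.634% and 0.611% of all tested genes), and the median log2 fold change was 0.03. At an unadjusted p-value under 0.05, 4 of the 10 were higher, namely IKBKB, CHUK, MAP3K14 and TAB1, and 0 were lower, beside 8.81% of all tested genes that were higher. The same 4 genes had groups that did not overlap, beside 3.71% of all tested genes in that direction. For MAP3K14 the highest control was at 5.12 CPM and the lowest A20 siRNA sample at 5.13, and for TAB1 they were at 33.3 and 33.4. Their adjusted p-values were 0.232 and 0.304 (edgeR). IKBKB, the catalytic IkB kinase IKK-beta, had 58.0, 55.8, 54.4 and 53.0 CPM with control siRNA and 61.6, 60.2, 61.4 and 59.6 CPM with A20 siRNA. All A20 siRNA samples lay above all controls. This amounted to a log2 fold change of 0.13 with a standard error of 0.03 (adjusted p = 0.0428, edgeR). The call was lost without any one of control replicates 2, 3 and 4 and A20 siRNA replicates 1, 3 and 4 (adjusted p = 0.117, 0.128, 0.177, 0.0906, 0.137 and 0.0863, edgeR). In these fits the log2 fold change of IKBKB was 0.11 to 0.14. Over all tested genes they called 6 to 49 higher and 6 to 151 lower, against 85 and 82 with all samples. The IKBKB call was also lost with DESeq2 (adjusted p = 0.0522) and with the length and GC correction (log2 fold change 0.11, adjusted p = 0.0550, edgeR). CHUK, which encodes IKK-alpha, had the next smallest p-value, with 79.5 to 81.3 CPM against 82.9 to 87.0 CPM and a log2 fold change of 0.07 (adjusted p = 0.171, edgeR).

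The ligase that marks phosphorylated IkB for degradation and a set of nuclear regulators were examined in the same way. None of the 5 ligase subunits passed in edgeR, with 1 at an unadjusted p-value under 0.05 (16.2% of all tested genes) and a median log2 fold change of -0.0017. SKP1, its adaptor, had a log2 fold change of 0.06 (adjusted p = 0.271, edgeR) and RBX1, its RING subunit, had -0.08 (adjusted p = 0.347). None of the 8 nuclear regulators passed in edgeR either, with 2 at an unadjusted p-value under 0.05 (again beside 16.2%) and a median of 0.03. These were the acetyltransferases EP300 (log2 fold change 0.15, adjusted p = 0.0994) and CREBBP (0.07, adjusted p = 0.281), which serve as coactivators of RELA. EP300 passed without control replicate 1, where it was 0.20 (adjusted p = 0.0040, edgeR), and with no filter on low counts (0.14, adjusted p = 0.0244). Those fits called 567 and 314 of all tested genes higher, against 85 in the reported fit. With the length and GC correction SKP1 was at 0.032 and CREBBP at 0.036, and RBX1 was at -0.045 without A20 siRNA replicate 3. DESeq2 and limma-voom called 0 genes of either set.

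Downstream, 37 genes widely described as NFkB targets were examined, of which 36 were found in the counts under their current identifiers and 25 were tested. Of the 25, 3 were higher and 1 was lower (edgeR, adjusted p under 0.05), beside 0.634% and 0.611% of all tested genes. At an unadjusted p-value under 0.05, 6 were found, 3 higher and 3 lower. Of all tested genes, 16.2% reached that level, and 8.81% did so in the higher direction. The 3 lower at that level were BCL2A1, ICAM1 (log2 fold change -0.09, adjusted p = 0.205, edgeR) and SDC4 (-0.06, adjusted p = 0.233). The median log2 fold change of the 25 was -0.02, with 9 above 0 and 16 below. The higher genes were CXCL8, TRAF1 and BIRC3, with log2 fold changes of 1.41, 0.72 and 0.30 (adjusted p = 0.0106, 0.0276 and 0.0333). They were already known from an earlier look at these samples when the list was drawn up, so their presence in it is no independent evidence. CXCL8 encodes the chemokine interleukin-8 and rested on few reads, 8 to 12 in each control and 22 to 44 in each sample with A20 siRNA. TRAF1 and BIRC3 encode a receptor adaptor and a ubiquitin ligase of the TNF receptor complexes.

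The gene lower at the adjusted threshold was BCL2A1, which encodes an antiapoptotic BCL2 relative. It had 121, 122, 119 and 131 CPM with control siRNA and 112, 114, 105 and 108 CPM with A20 siRNA. The groups did not overlap, in the direction opposite to CXCL8, TRAF1 and BIRC3. BCL2A1 fell by 0.17 on the log2 scale with a standard error of 0.03 (adjusted p = 0.0211, edgeR). The call for BCL2A1 was lost without control replicate 2, control replicate 4 or A20 siRNA replicate 3 (adjusted p = 0.0592, 0.0778 and 0.0990, edgeR). Over all tested genes, these fits called 6 to 11 higher and 6 to 7 lower, against 85 and 82 with all samples. The same 3 omissions ended the calls for BIRC3 (adjusted p = 0.0844, 0.119 and 0.121) and for TRAF1 (0.0687, 0.102 and 0.102), which was also lost without control replicate 3 (0.0696). CXCL8 was lost without control replicate 4 (adjusted p = 0.0507, edgeR).

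**Figure D5:**
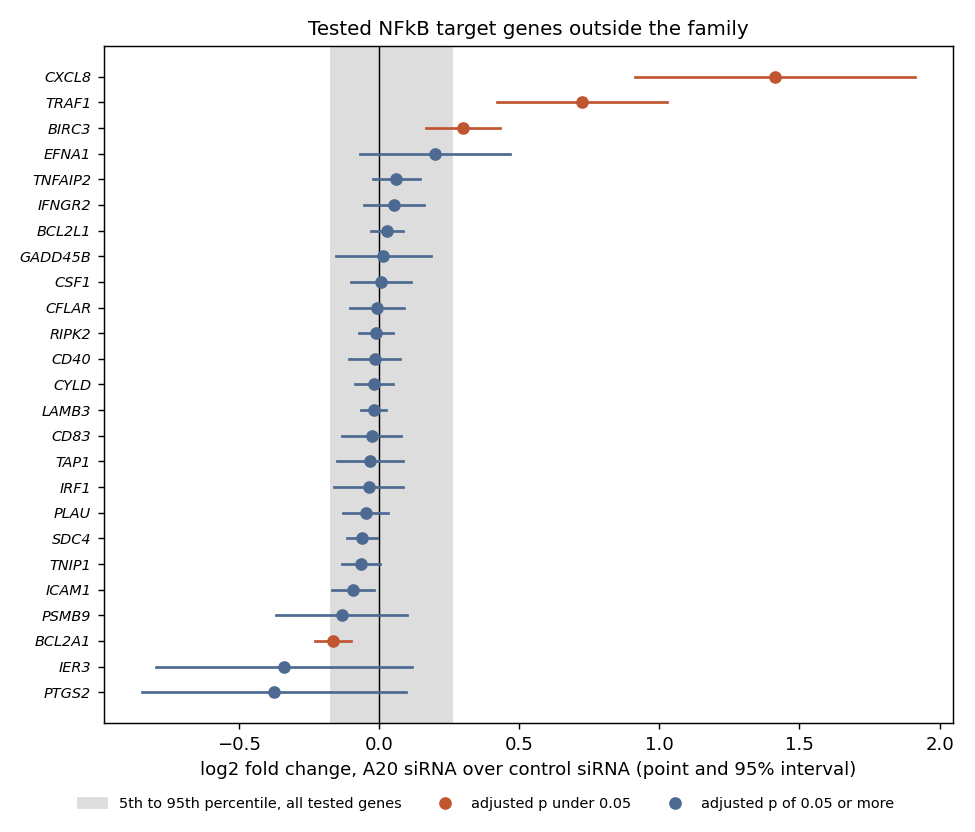
Log2 fold change of the 25 tested NFkB target genes outside the family, A20 siRNA over control siRNA, with 95% intervals; the grey band spans the 5th to 95th percentile of all tested genes, from -0.17 to 0.26. CXCL8, TRAF1 and BIRC3 lie to the right of 0 and BCL2A1 at -0.17 to the left, and most of the other genes are close to 0. PTGS2 at -0.37 and IER3 at -0.34 lie further to the left than BCL2A1, with intervals that include 0.

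Of the 11 target genes that were counted but not tested, CCL2, IL6, TNF, VCAM1 and LTB had no read in any sample. A count of 0 allowed a level of up to 0.0875 to 0.141 CPM, depending on the sample. The kB consensus was found in the promoter windows of 17 of the 31 target genes with windows, BIRC3 among them and CXCL8, TRAF1 and BCL2A1 not. Over all genes, 881 tested genes had the consensus and 8984 had windows without it. The share called was 1.48% with the consensus (8 higher and 5 lower) and 1.28% without it (55 higher and 60 lower), and the median log2 fold changes were 0.0077 and 0.00014. These shares are given as descriptions, and a window without the consensus only lacks these letters.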

How the data were processed

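Per the methods of the study, reads were trimmed with Trimmomatic and mapped to GRCh38.p7 with STAR on a GENCODE annotation, and the authors deposited raw counts, namely how many reads mapped uniquely to each gene. The tool versions, the GENCODE release and the strand setting are not given in the sources used here. Groups and replicate numbers came from the sample labels. Nothing in the labels says whether replicates were separate cultures from separate experiments, so p-values measure the spread between these samples, which may be technical. Replicates differed by more than sampling noise (chi-square per degree of freedom 1.31 to 3.69). In the controls, pairs with replicate 1 gave 3.23 to 3.69 and the other pairs 2.04 to 2.48. With A20 siRNA, pairs with replicate 1 gave 2.83 to 3.44 and the other pairs 1.31 to 2.82. Replicate 1 also had the most reads in each group, and the cause of these differences was not tested.

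Counts were filtered with edgeR's filterByExpr (minimum count 10), scaled by TMM and tested with the quasi-likelihood test of edgeR 4.0.16 in R 4.3.3, without covariates, with Benjamini-Hochberg adjustment over 13412 genes and a threshold of 0.05. Standard errors and 95% intervals were derived from the F statistic. Alternatives were no filter, at least 10 counts in every sample, RLE scaling, DESeq2 1.42.0, limma-voom (limma 3.58.1), the replicate number as a block, a loess correction (span 0.5) for exonic length and GC content alone and with the block, and each sample left out in turn. Symbols, coordinates and lengths came from GENCODE 44 on GRCh38, matched by identifier without version (56948 of 57992 matched), so they are those of a later release. SOD2 was not matched. Of the marker genes, 1 is not reported here. Lengths of the longest transcript were an alternative, and MANE Select lengths were added after seeing the data. In simulated data of the same 13412 genes and this comparison, 57.6%, 80.6% and 91.0% of genes changed by a log2 fold change of 0.2, 0.5 and 1 were called in the right direction. Of the calls, 2.55% were false. The simulated counts took their spread from the fit itself. The rates are pooled over all expression levels, so they do not hold for thinly covered members such as BCL3 and NFKBIB in particular.

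The named genes were the 10 members, TNFAIP3, in each list the genes with an adjusted p-value under 0.05 and, where under 2 passed, the 2 of smallest p-value, and the 3 genes most like NFKBIA. MAP3K14, TAB1, ICAM1, SDC4, PTGS2, IER3 and the untested target genes were named after their values were seen. The members, lists and tests were chosen with earlier results of these data known. Detection limits (3 counts) cover counting error only, whereas the 95% intervals include the spread between samples. Without a stated strand setting, reads of NFKBIB and the 40 exonic bases it shares with SIRT2 on the opposite strand cannot be separated.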

Additional observations from a re-analysis of the deposited data

Results flagged for a closer look

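For the 10 members, TNFAIP3 and the 5 list genes that passed the threshold, each of the 32 groups of 4 samples was examined for 1 sample set apart from the other 3. Chance flags about 1 group in 20, or 1.6 of 32, and 2 were found. BCL3 was lowest in A20 siRNA replicate 4, at 3.53 CPM, while its other A20 siRNA samples had 3.85 to 3.91 CPM, and the gap made up 0.848 of the whole range. That sample had 75 reads of BCL3. TNFAIP3 was lowest in A20 siRNA replicate 2, at 3.01 CPM, while the others had 3.40 to 3.47 CPM, and the gap made up 0.847 of the range. The latter sample was also the lowest of its group for REL.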

How the results depend on the processing

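TNFAIP3 stayed lower and past the threshold in 15 of 15 alternatives with an adjusted p-value (log2 fold change -0.77 to -0.67). DESeq2 gave it none, nor any for NFKBIB, BCL3, CXCL8 and TRAF1, and CXCL8 was not tested with at least 10 counts in every sample. RELB, REL, NFKBIA, NFKBIE and NFKBIZ kept their direction throughout. REL passed with no low-count filter (0.25, adjusted p = 0.00375), with the replicate block (0.25, adjusted p = 0.0282) and with the length and GC correction added to that block (0.22, adjusted p = 0.0474), and ranged from 0.20 to 0.31 with 1 sample left out. NFKBIZ ranged from 0.12 to 0.18. The number of members called higher was 1 in each of these 3 settings and 0 to 2 with 1 sample left out. NFKB1 was -0.014 with the correction and -0.013 with the block and correction. NFKB2 was -0.0035 without a filter, -0.0019 with RLE, -0.0011 with DESeq2, -0.00056 with limma-voom, -0.00092 with the block, -0.0010 with both, and -0.031 to 0.035 with 1 sample left out. RELA ranged from -0.027 to 0.00059, NFKBIB from -0.042 to 0.085 and BCL3 from -0.064 to 0.058 in the latter fits. Over all genes, 85 were higher and 82 lower, against 314 and 310 without a filter, 262 and 212 with the block, 219 and 242 with both, 133 lower with the correction, and 6 to 567 higher and 6 to 430 lower with 1 sample left out. Kinases called higher were 0 with DESeq2 and the correction, and 0 to 1 with 1 sample left out. Nuclear regulators were 1 without a filter and 0 to 1. Targets were 1 higher with DESeq2, and 0 to 3 higher and 0 to 1 lower with 1 sample left out. The cause of these shifts was not tested. Deviations of same-numbered samples correlated by -0.0098 to 0.084, below the 0.1 set for pairing, and 4 of 8 samples correlated best with their own number. These values do not settle whether replicate numbers pair the samples, so the block is given only as an alternative.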

Other observations

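Deviations of the members from their group means were compared over the 8 samples, as a description without a test, since all members share the same libraries and their depth. Among the 45 pairs Pearson's r ran from -0.88 to 0.95 with a median of 0.02. The highest value was that of the inhibitors NFKBIA and NFKBIE (0.95) and the lowest that of NFKBIZ and BCL3 (-0.88). REL and NFKBIZ, the members with the smallest p-values, had 0.64. Outside the family, the genes whose log2 CPM was most like that of NFKBIA over the 8 samples were GPALPP1, CPSF4 and MCM3, each with an r of 0.97, out of 13412 genes searched.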
